A study of Mus musculus with 6 samples.

Results

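Kinesins are motor proteins that walk along microtubules or take them apart, and centromere, kinetochore and spindle checkpoint proteins hold chromosomes to the spindle and delay anaphase until every chromosome is attached. The 80 genes described here were all rows of a table of 13069 genes whose symbol begins with Kif and a digit (34 genes) or with Cenp and a letter from b to z (18 genes), together with 28 genes chosen by name from the checkpoint, the kinetochore, the spindle and cytokinesis. The levels of all 80 were measured by RNA-seq in mouse glioblastoma (GBM) neurosphere cultures labelled ATRX knockout (ATRX KO, line code C54B) and ATRX wild type (ATRX WT, line code C39E), with 3 libraries each. ATRX is a chromatin remodeller that deposits histone H3.3 at telomeres and at pericentromeric repeats.

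Both lines came from brain tumours raised in immune-competent mice, C57BL/6 or FVB, by placing Sleeping Beauty plasmids in the ventricles of newborns. A short hairpin against p53 and a plasmid that overexpresses NRAS were part of both models, and a short hairpin against ATRX was added or left out. The genotype label reads knockout while the growth protocol describes a hairpin, so which of these was used in C54B is not known, and the strain behind each line is not stated. The culture medium was one for neural stem cells, with FGF, EGF, N-2 and B-27 added. Because each genotype is 1 line, genotype and line cannot be told apart, and the p-values below measure the spread between libraries, which may be technical. The series title places the comparison within the question of how loss of ATRX affects progress through the cell cycle.

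In a dividing cell the inner centromere proteins sit on the centromeric chromatin throughout the cycle, the outer kinetochore is built on them at mitosis and binds microtubules, and unattached kinetochores start the checkpoint that holds back the anaphase-promoting complex. Mitotic kinesins shape the spindle, move chromosomes to its middle and build the cleavage site. Transport kinesins instead carry vesicles, organelles and receptors, and several of them are known as neuronal genes. Most mitotic genes are transcribed in G2 and mitosis, so their levels in a bulk sample depend on how many cells are dividing as well as on the RNA per cell. Fewer such cells and less RNA per cell cannot be told apart in these libraries.

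The 2 lines differed over most of the transcriptome. Of 12201 genes tested with limma on log2 RPKM (reads per kilobase, relative to library size, as deposited), 43.6% rose and 45.9% fell in ATRX KO at an adjusted p under 0.05, with a median log2 fold change of -0.02. By log2 1 or more, 17.2% rose and 19.6% fell, and for 90.5% of genes the ranges of the 3 ATRX KO and the 3 ATRX WT values did not overlap. Atrx was detected in every library, at 14.1, 16.6 and 17.1 RPKM in ATRX KO and 22.3, 22.7 and 21.6 RPKM in ATRX WT. Nras averaged 176.7 ± 4.73 RPKM in ATRX KO and 121.1 ± 0.835 RPKM in ATRX WT (SD, n = 3 each), a log2 fold change of 0.545. Trp53 averaged 11.8 ± 0.559 RPKM in ATRX KO and 12.9 ± 0.198 RPKM in ATRX WT. The Trp53 log2 fold change of -0.13 lost its call without ATRX KO replicate 3 or without ATRX WT replicate 3. Each ATRX KO library held 22177228 to 32477269 reads, and each ATRX WT library 34966108 to 38039847. Most marker genes differed between the lines. The 6 astrocyte and neural stem cell markers in the table, of 8 listed, summed to 76.3 to 82.6 RPKM in ATRX KO and 3314 to 3386 RPKM in ATRX WT. Fabp7 alone averaged 0.143 RPKM in ATRX KO and 2757 RPKM in ATRX WT, and all 6 fell. Of these, Fabp7, Aldh1l1 and Ptprz1 reached the level required for the test only in ATRX WT. The 13 neuronal markers of 14 listed summed to 88.0 to 90.7 RPKM in ATRX KO and 370.6 to 386.4 RPKM in ATRX WT, with Dcx and Gpm6a at 0 reads in ATRX KO. Nefl and Nefm, which rose, made up 72.4 to 76.8 RPKM of that sum in ATRX KO and 24.9 to 25.4 RPKM in ATRX WT, and the other 11 summed to 13.9 to 15.5 RPKM in ATRX KO and 345.1 to 361.5 RPKM in ATRX WT. The 5 oligodendrocyte lineage markers of 8 listed summed to 0.487 to 0.602 RPKM in ATRX KO and 273.0 to 282.1 RPKM in ATRX WT, with Olig1 and Bcas1 at 0 reads in ATRX KO. The 11 mesenchymal markers of 12 listed summed to 1660 to 1824 RPKM in ATRX KO and 7.94 to 8.25 RPKM in ATRX WT. The 2 microglia and macrophage markers of 8 listed summed to 30.6 to 35.1 RPKM in ATRX KO and 5.596 to 6.358 RPKM in ATRX WT, and the 3 endothelial markers of 6 listed to 14.5 to 16.5 RPKM in ATRX KO and 0.491 to 0.748 RPKM in ATRX WT. Of the endothelial markers 2 rose, and Kdr, not tested, overlapped at means of 0.253 RPKM in ATRX KO and 0.304 RPKM in ATRX WT. The 2 that rose, Cdh5 and Emcn, reached the level required for the test only in ATRX KO. The part of these differences in the results below was not tested.

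Most of the 80 genes were lower in ATRX KO. Among the 78 that could be tested, 14 rose (17.9%), 56 fell (71.8%) and 8 had no call, and the median log2 fold change was -0.60, beside 43.6% rising and 45.9% falling among all tested genes. Most shifts were small. By log2 1 or more 2 of the 78 rose and 17 fell, beside 17.2% rising and 19.6% falling among all tested genes. Falls of that size were thus near the share of all genes. Both rises of that size, of Kif17 and Kif26a, were of kinesins outside mitosis. The groups did not overlap for 72 of the 78, a share near the 90.5% of all genes. Kif9 and Kif26b did not reach the level required for the test, and all 80 genes had reads in both genotypes. Of the 57 mitotic genes, 7 rose (12.3%), 43 fell (75.4%) and 7 had no call. Their median log2 fold change was -0.60. None of the 7 rises reached log2 1 while 12 of the falls did, beside 17.2% and 19.6% of all tested genes. The counts by role and by list below also stand beside the 43.6% rising and 45.9% falling among all tested genes. Scaling each library by its reads in the table, rather than by the size the authors used, lowers every log2 fold change by about the same amount, moving the median of all genes by -0.196, so small rises are relative to the scaling. A gene was tested where log2 RPKM reached 0 in at least 3 of the 6 libraries. Kif17, Kif1a, Kif5a, Kif19a and Kif26a, 5 of the 78, had a mean under that level in 1 of the lines, so they entered the test through the line in which they were high, and their calls add nothing to the counts as evidence.

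**Figure D1:**
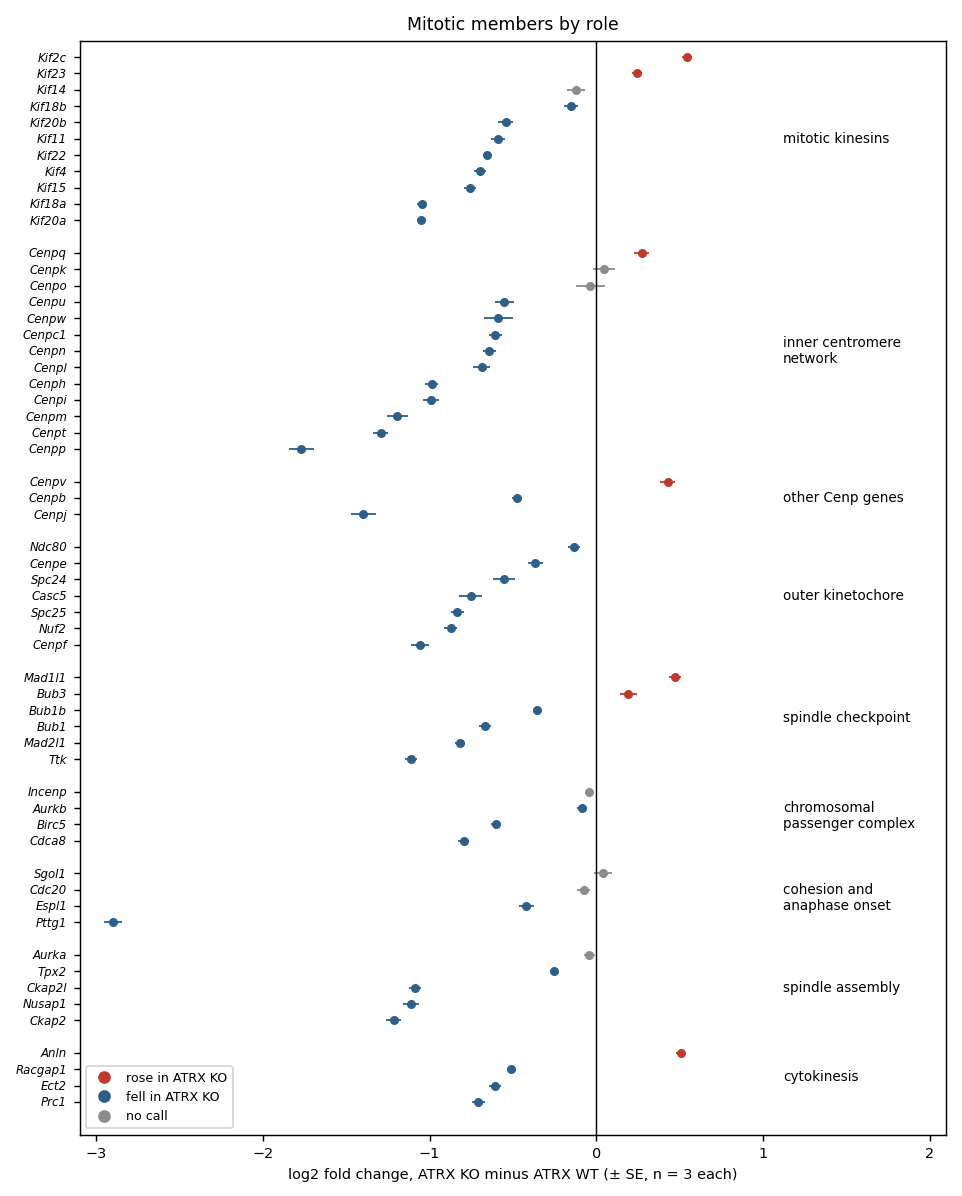
Log2 fold change of each of the 57 mitotic genes, ATRX KO minus ATRX WT, with its standard error (n = 3 libraries each), in red where it rose, blue where it fell and grey where there was no call. Points left of the line at 0 are lower in ATRX KO. All 7 outer kinetochore genes lie to the left, and the rises lie between 0.19 (Bub3, which turns to -0.01 or closer to 0 under 2 other scalings) and 0.54 (Kif2c).

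Of the 11 mitotic kinesins in the table, 8 fell (72.7%), 2 rose (18.2%) and 1 had no call, beside 45.9% falling and 43.6% rising among all tested genes. The median log2 fold change of the 11 was -0.59. The largest falls were of Kif20a and Kif18a. Kif20a, which carries the chromosomal passenger complex to the central spindle, stood at 21.7, 21.1 and 20.9 RPKM in ATRX KO and at 44.1, 44.0 and 43.9 RPKM in ATRX WT. The groups were far apart and each was tight, and its mean of 21.3 ± 0.435 RPKM in ATRX KO was 48.3% of the 44.0 ± 0.0925 RPKM in ATRX WT (SD, n = 3 each). That is a log2 fold change of -1.05 (SE 0.028, adjusted p = 1.4e-09). Of the 80 genes, 17 share exon bases with another gene of the table, and whether counting used strand is not stated, so reads of such pairs may be mixed. Kif20a shares 977 bases with Cdc23 on the opposite strand, Kif4 683 with Pdzd11 and Prc1 670 with Rccd1. Kif18a, which damps the swings of chromosomes at the metaphase plate, stood at 15.9, 15.9 and 16.1 RPKM in ATRX KO and at 33.2, 33.1 and 32.7 RPKM in ATRX WT. Every ATRX KO value lay below every ATRX WT value, and the log2 fold change was -1.05 (SE 0.028, adjusted p = 1.4e-09).

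The motors that hold the spindle poles apart and push on chromosome arms fell by less. Kif15, which slides spindle microtubules beside Kif11, fell by 0.76 on the log2 scale, with 12.02, 11.92 and 12.58 RPKM in ATRX KO and 20.46, 21.04 and 20.24 RPKM in ATRX WT. The chromokinesins Kif4 and Kif22, which bind chromosome arms, fell by 0.70 and 0.65. Kif22 stood at 42.2, 40.7 and 40.7 RPKM in ATRX KO and at 66.1, 63.4 and 65.1 RPKM in ATRX WT, and had the highest mean RPKM of all 33 kinesins in both lines. Chosen after their values were seen, Kif11, the bipolar motor that separates the poles, fell by 0.59, and Kif20b, a motor of cytokinesis, fell by 0.54. Kif18b, a depolymerase of astral microtubules, also named after its value was seen, fell by 0.15 (adjusted p = 0.0088). Kif14, a motor of the midbody, averaged 4.16 ± 0.0737 RPKM in ATRX KO and 4.52 ± 0.121 RPKM in ATRX WT. Its log2 difference of -0.12 did not pass (adjusted p = 0.054), and it passed as lower with log2(RPKM + 1), without the mean-variance trend, without ATRX KO replicate 1 and with scaling by the reads in the table (adjusted p 0.00034 to 0.17 over the alternatives).

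The 2 mitotic kinesins that rose act at the centromere and at the cleavage site. Kif2c, which takes microtubules apart at centromeres and so removes faulty attachments, stood at 30.7, 31.6 and 31.4 RPKM in ATRX KO and at 20.9, 21.5 and 21.9 RPKM in ATRX WT. All ATRX KO values were higher, with a log2 fold change of 0.54 (SE 0.031, adjusted p = 2.2e-07). Kif2c lies on chromosome 4, where the 48 genes within 5 Mb of it that had a mean log2 RPKM of at least 3 showed a median log2 fold change of 1.20, with 38 of them higher in ATRX KO. Kif23, the motor subunit of centralspindlin, the complex that bundles the central spindle, stood at 39.5, 41.7 and 40.9 RPKM in ATRX KO and at 34.1, 34.3 and 34.5 RPKM in ATRX WT. This was a rise of 0.25 (SE 0.029, adjusted p = 4e-05), and the call was lost with scaling by the reads in the table, where the log2 difference was 0.05. Within the mitotic kinesins the order of levels differed between lines. Kif20a over Kif23 was 0.523 ± 0.024 in ATRX KO and 1.28 ± 0.0114 in ATRX WT, and Kif18a over Kif2c was 0.513 ± 0.00839 in ATRX KO and 1.54 ± 0.048 in ATRX WT, as ratios of RPKM within a library (SD, n = 3 each). Such ratios do not depend on the scaling of libraries, and they are given as descriptions without a test.

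**Figure D2:**
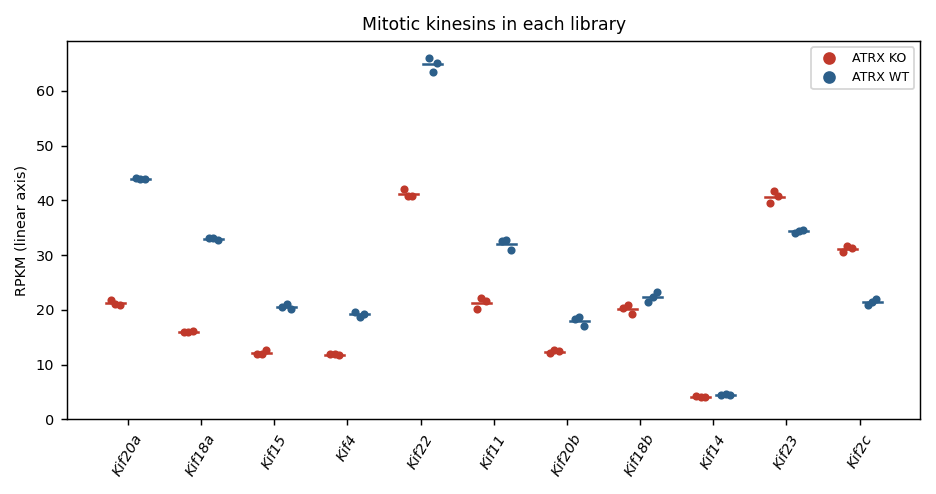
RPKM of the 11 mitotic kinesins in each library on a linear axis, with ATRX KO in red to the left of ATRX WT in blue and a bar at each mean. From left to right the genes run from the largest fall to the largest rise, with Kif20a at 20.9 to 21.7 RPKM in ATRX KO and 43.9 to 44.1 RPKM in ATRX WT, and Kif2c at 30.7 to 31.6 RPKM in ATRX KO and 20.9 to 21.9 RPKM in ATRX WT.

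The 13 genes of the inner centromere network with a Cenp symbol gave 10 falls, 1 rise and 2 genes without a call, with a median of -0.64. Genes of the network under other symbols are not among them. Apitd1 (Cenps), named after its value was seen, rose by 0.325, a call lost with scaling by the reads in the table. Falls were uneven among the 13, also within subcomplexes whose proteins are known to assemble together. Cenpp had the largest fall, with 4.57, 5.10 and 4.22 RPKM in ATRX KO and 16.8, 15.6 and 14.9 RPKM in ATRX WT (log2 fold change -1.77, SE 0.075, adjusted p = 3e-08). Cenpq, of the same subcomplex, went the other way, with 33.4, 35.9 and 33.2 RPKM in ATRX KO and 29.1, 28.8 and 27.0 RPKM in ATRX WT. Its rise of 0.27 (SE 0.043, adjusted p = 0.00027) was lost with scaling by the reads in the table. Their partner Cenpo averaged 3.28 ± 0.387 RPKM in ATRX KO and 3.35 ± 0.0976 RPKM in ATRX WT and did not pass (log2 difference -0.04, adjusted p = 0.7), and Cenpu, named after its value was seen, fell by 0.55. On the opposite strand, exons of Cenpu share 912 bases with Primpol, those of Cenpo 921 with Adcy3 and 252 with Ptrhd1, and those of Cenpp 315 with Ippk.

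Cenpt, the histone-fold protein that offers a second route to the Ndc80 complex, fell by 1.29 (SE 0.046, adjusted p = 9e-09). Its levels were 7.78, 8.62 and 8.25 RPKM in ATRX KO and 20.4, 19.6 and 20.3 RPKM in ATRX WT, groups that did not overlap. Its histone-fold partner Cenpw, named after its value was seen, fell by 0.59. In the subcomplex of Cenph, Cenpi, Cenpk and Cenpm, which joins the inner network together, 3 of 4 fell. Cenpm had 7.41, 6.72 and 8.07 RPKM in ATRX KO and 16.8, 16.7 and 17.2 RPKM in ATRX WT (log2 fold change -1.19, SE 0.064). Cenpi and Cenph both fell by 0.99, to 50.3% and 50.5% of their ATRX WT means. Around Cenpi on chromosome X, 3 of 15 genes within 5 Mb were higher in ATRX KO, with a median of -0.76. Cenpk, the remaining member, averaged 5.04 ± 0.0665 RPKM in ATRX KO and 4.89 ± 0.386 RPKM in ATRX WT, with overlapping groups and no call (adjusted p = 0.51). Chosen after their values were seen, Cenpl and Cenpn, which read the centromeric nucleosome together, fell by 0.69 and 0.64, and Cenpc1, the scaffold from that nucleosome to the outer kinetochore, fell by 0.60.

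Cenpa, the histone H3 variant that marks centromeres and is no member by the rule, was named after its value was seen. Its levels were 89.7, 83.8 and 88.0 RPKM in ATRX KO and 87.7, 86.1 and 86.2 RPKM in ATRX WT, with overlapping groups (log2 difference 0.01, adjusted p = 0.81), and it was lower by 0.19 to 0.20 on the log2 scale under 2 other scalings. Cenpb, which binds a DNA box in centromeric repeats, fell by 0.48, with 40.6 ± 0.931 RPKM in ATRX KO and 56.5 ± 1.37 RPKM in ATRX WT. Cenpj, which controls the length of centrioles, fell by 1.398 (SE 0.075), with 2.55 ± 0.195 RPKM in ATRX KO and 6.73 ± 0.393 RPKM in ATRX WT. Cenpv, a protein of pericentromeric chromatin and the central spindle, rose by 0.43, with 90.5 ± 5.18 RPKM in ATRX KO and 67.2 ± 1.54 RPKM in ATRX WT, the highest mean of the 18 Cenp genes in both lines.

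In the outer kinetochore all 7 genes fell, with a median log2 fold change of -0.75. The Ndc80 complex, the main microtubule coupler, has 4 subunits, and they did not fall by like amounts. Ndc80 itself fell least, with 24.28, 25 and 25.19 RPKM in ATRX KO and 28.1, 27.8 and 25.9 RPKM in ATRX WT (log2 fold change -0.14, SE 0.038, adjusted p = 0.0084). Nuf2, which pairs with Ndc80 along their length, fell by 0.87 (SE 0.039), with 23.3, 24.1 and 22.4 RPKM in ATRX KO and 43.9, 43.0 and 40.9 RPKM in ATRX WT. The ratio of Nuf2 to Ndc80 was 0.937 ± 0.0417 in ATRX KO and 1.56 ± 0.0138 in ATRX WT. Spc24 and Spc25, which anchor the complex to the inner kinetochore, fell by 0.55 and 0.83, with a ratio of Spc25 to Spc24 of 1.23 ± 0.133 in ATRX KO and 1.49 ± 0.119 in ATRX WT, where the closest libraries were 1.34 and 1.37.

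Casc5 (Knl1), the platform that binds the Bub proteins, fell by 0.75, with 6.72 ± 0.6002 RPKM in ATRX KO and 11.3 ± 0.481 RPKM in ATRX WT. Cenpf, a large protein of the nuclear matrix and kinetochore, fell by 1.06 (SE 0.052), with 6.86, 7.63 and 7.25 RPKM in ATRX KO and 14.5, 15.7 and 15.0 RPKM in ATRX WT. Cenpe, itself a kinesin that brings chromosomes to the plate, fell by 0.36 (SE 0.044), with 17.1 ± 0.871 RPKM in ATRX KO and 21.96 ± 0.604 RPKM in ATRX WT.

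Of the 6 spindle checkpoint genes 4 fell and 2 rose, with a median of -0.51. Ttk, Bub1, Bub1b and Mad2l1 fell, Mad1l1 rose, and the direction of Bub3 depended on the scaling. Ttk (Mps1), the kinase that starts the signal, stood at 11.5, 10.8 and 10.8 RPKM in ATRX KO and at 23.9, 23.9 and 23.6 RPKM in ATRX WT, a log2 fold change of -1.11 (SE 0.036, adjusted p = 5.3e-09). Mad2l1, which binds and blocks Cdc20, stood at 35.2, 36.8 and 37.1 RPKM in ATRX KO and at 63.8, 64.8 and 63.8 RPKM in ATRX WT, a log2 fold change of -0.82 (SE 0.029, adjusted p = 8.7e-09). Mad1l1, its receptor at the kinetochore, rose by 0.47 (SE 0.037, adjusted p = 2.1e-06), with 19.7, 19.5 and 18.5 RPKM in ATRX KO and 13.8, 14.1 and 13.6 RPKM in ATRX WT. This receptor and its partner moved apart, and Mad2l1 over Mad1l1 was 1.89 ± 0.106 in ATRX KO and 4.63 ± 0.0462 in ATRX WT.

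Bub1, a checkpoint kinase that also marks the inner centromere, fell by 0.67, to 63.0% of its ATRX WT mean, and Bub1b (BubR1), which joins Mad2l1 in the inhibitory complex, fell by 0.35 to 78.2%. Bub3, the partner of both, stood at 98.6, 89.0 and 91.8 RPKM in ATRX KO and at 79.4, 78.2 and 87.1 RPKM in ATRX WT. Its rise of 0.19 (SE 0.051, adjusted p = 0.0064) turned to -0.005 with scaling by the reads in the table and to -0.01 after quantile normalization. Bub1 over Bub3 was 0.219 ± 0.0157 in ATRX KO and 0.398 ± 0.0366 in ATRX WT, and the 3 libraries of each line did not overlap.

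The chromosomal passenger complex, which corrects attachments at the centromere and later guides cytokinesis, gave 3 falls and 1 gene without a call. The differences were small for its kinase and its scaffold and larger for the 2 subunits that bring it to the centromere. Aurkb, the kinase, stood at 52.8, 51.3 and 50.7 RPKM in ATRX KO and at 53.2, 55.3 and 55.7 RPKM in ATRX WT. Its log2 fold change of -0.08 (SE 0.030, adjusted p = 0.025) lost its call under 6 of the alternatives, 4 of which left out 1 library (ATRX KO replicate 2 or 3, or ATRX WT replicate 2 or 3), with log2 fold changes of -0.10 to -0.07 over the libraries left out. Incenp, the scaffold, averaged 48.6 ± 0.556 RPKM in ATRX KO and 50.1 ± 0.734 RPKM in ATRX WT and did not pass (log2 difference -0.04, adjusted p = 0.13). Cdca8 (borealin) fell by 0.80 (SE 0.032), with 73.8, 69.1 and 70.0 RPKM in ATRX KO and 121.8, 121.7 and 125.8 RPKM in ATRX WT. Around Cdca8 on chromosome 4, 18 of 63 genes within 5 Mb were higher in ATRX KO, with a median of -0.35. Birc5 (survivin) fell by 0.60 (SE 0.030), with 15.7 ± 0.185 RPKM in ATRX KO and 23.8 ± 0.321 RPKM in ATRX WT. Aurkb over Incenp overlapped between the lines, at 1.06 ± 0.0209 in ATRX KO and 1.09 ± 0.0373 in ATRX WT, while Cdca8 over Incenp was 1.46 ± 0.0545 in ATRX KO and 2.46 ± 0.0833 in ATRX WT.

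The securin gene, which acts at anaphase onset, had the largest fall of the mitotic genes. Pttg1 (securin), the inhibitor of separase that is destroyed when the checkpoint is satisfied, stood at 6.81, 5.90 and 6.44 RPKM in ATRX KO and at 48.7, 46.6 and 47.3 RPKM in ATRX WT. Its mean in ATRX KO was 13.4% of that in ATRX WT, from 854 reads in ATRX KO against 9722 in ATRX WT, a log2 fold change of -2.90 (SE 0.052, adjusted p = 1.6e-10). No other of the 57 mitotic genes fell by as much as 2 on the log2 scale, the next being Cenpp at -1.77. By the same minimum level, the 11 genes within 5 Mb of Pttg1 on chromosome 11 showed a median of -0.06. Espl1 (separase), the protease that cuts cohesin, fell by 0.42 (SE 0.043), with 10.3 ± 0.454 RPKM in ATRX KO and 13.8 ± 0.248 RPKM in ATRX WT. Pttg1 over Espl1 was 0.618 ± 0.0263 in ATRX KO and 3.45 ± 0.0452 in ATRX WT, the widest gap of the mitotic partner ratios computed.

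Cdc20, the activator of the anaphase-promoting complex and the target of the checkpoint, stood at 90.4, 86.3 and 81.8 RPKM in ATRX KO and at 89.1, 90.0 and 93.2 RPKM in ATRX WT. The groups overlapped and it did not pass (log2 difference -0.08, SE 0.039, adjusted p = 0.094), though it fell without ATRX KO replicate 1 and under 2 other scalings. Around Cdc20 on chromosome 4, 54 genes within 5 Mb had a median log2 fold change of 1.09. Mad2l1 over Cdc20, inhibitor over target, was 0.423 ± 0.032 in ATRX KO and 0.707 ± 0.02 in ATRX WT. Sgol1 (shugoshin), which protects centromeric cohesin, averaged 12.9 ± 0.595 RPKM in ATRX KO and 12.53 ± 0.661 RPKM in ATRX WT, did not pass (log2 difference 0.04, adjusted p = 0.49) and was lower under 2 other scalings.

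**Figure D3:**
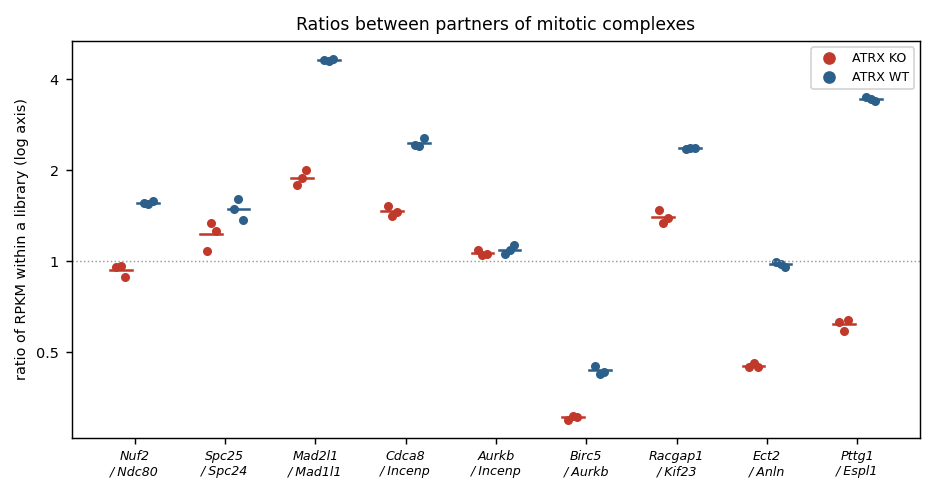
Ratio of RPKM between partners of mitotic complexes within each library on a log axis, with ATRX KO in red to the left of ATRX WT in blue and a bar at each mean. Aurkb over Incenp overlaps at 1.06 in ATRX KO and 1.09 in ATRX WT, while Pttg1 over Espl1 has means of 0.618 in ATRX KO and 3.45 in ATRX WT.

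Of the 5 spindle assembly genes 4 fell, with a median of -1.09, the lowest median of the role groups. Ckap2, which nucleates and steadies spindle microtubules, stood at 19.2, 20.4 and 21.6 RPKM in ATRX KO and at 47.1, 47.4 and 47.5 RPKM in ATRX WT. Nusap1, which bundles microtubules near chromosomes, stood at 19.6, 22.3 and 21.4 RPKM in ATRX KO and at 46.8, 45.5 and 44.4 RPKM in ATRX WT. Ckap2l, the relative of Ckap2, averaged 23.2 ± 0.468 RPKM in ATRX KO and 49.3 ± 1.71 RPKM in ATRX WT. In each of these 3 the ATRX KO mean lay between 43.1% and 47.0% of the ATRX WT mean. Aurka, the kinase of the spindle poles, averaged 54.4 ± 2.02 RPKM in ATRX KO and 56.0 ± 1.08 RPKM in ATRX WT and did not pass (log2 difference -0.04, adjusted p = 0.26), and it fell under 2 other scalings. Its activator Tpx2 fell by 0.26 (SE 0.024), with 56.4 ± 0.703 RPKM in ATRX KO and 67.3 ± 0.575 RPKM in ATRX WT.

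Among the 4 genes of cytokinesis 3 fell and 1 rose, with a median of -0.56. Prc1, which bundles the antiparallel microtubules of the central spindle, fell by 0.71 (SE 0.036), with 44.7 ± 1.84 RPKM in ATRX KO and 73.0 ± 1.94 RPKM in ATRX WT. Racgap1, the partner of Kif23 in centralspindlin, fell by 0.51 (SE 0.026), with 58.3, 55.9 and 56.8 RPKM in ATRX KO and 80.2, 81.3 and 81.9 RPKM in ATRX WT. Racgap1 over Kif23 was 1.4 ± 0.0679 in ATRX KO and 2.36 ± 0.00946 in ATRX WT. Anln (anillin), the scaffold that ties actin to the contractile ring, rose by 0.50 (SE 0.029), with 54.6, 56.1 and 56.2 RPKM in ATRX KO and 39.4, 40.1 and 38.1 RPKM in ATRX WT. Ect2, the exchange factor that switches on RhoA beneath that ring, fell by 0.61 (SE 0.037), with 25.1 ± 0.645 RPKM in ATRX KO and 38.3 ± 1.47 RPKM in ATRX WT. Ect2 over Anln was 0.451 ± 0.00655 in ATRX KO and 0.976 ± 0.0172 in ATRX WT.

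Many mitotic genes share 2 promoter elements, a CCAAT box, bound by the factor NF-Y, and a cell cycle genes homology region, through which the DREAM and MuvB complexes act. Both were searched in RefSeq promoter windows (GRCm38.p6, 250 bases before to 50 after the start), which were at hand for 67 of the 80 genes, as CCAAT and as TTTGAA or TTTAAA, on both strands. Matches of the 2 motifs can share end bases. These windows are printed because they set a gene that fell (Ttk), one without a call (Cdc20) and one that rose (Kif23) beside a mitotic kinesin without either motif (Kif18a) and the transport kinesin that rose most (Kif17). Each runs 5′ to 3′ along the gene, with motif matches in capitals: Ttk at chr9:83834439-83834738 (plus strand), Cdc20 at chr4:118437294-118437593 (minus strand), Kif23 at chr9:61946750-61947049 (minus strand), Kif18a at chr2:109280488-109280787 (plus strand) and Kif17 at chr4:138262001-138262300 (plus strand).
Ttk: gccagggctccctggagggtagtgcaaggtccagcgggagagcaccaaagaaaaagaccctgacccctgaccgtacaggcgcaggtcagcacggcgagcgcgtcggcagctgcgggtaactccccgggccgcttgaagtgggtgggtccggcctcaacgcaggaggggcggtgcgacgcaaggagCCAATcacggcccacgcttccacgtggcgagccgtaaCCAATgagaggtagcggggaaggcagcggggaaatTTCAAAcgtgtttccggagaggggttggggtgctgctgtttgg
Cdc20: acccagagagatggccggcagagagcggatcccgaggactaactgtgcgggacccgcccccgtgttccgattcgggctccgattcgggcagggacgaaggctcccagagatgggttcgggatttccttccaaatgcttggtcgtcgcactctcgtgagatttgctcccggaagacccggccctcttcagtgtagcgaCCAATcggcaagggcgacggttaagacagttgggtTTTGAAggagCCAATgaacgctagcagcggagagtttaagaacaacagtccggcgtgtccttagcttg
Kif23: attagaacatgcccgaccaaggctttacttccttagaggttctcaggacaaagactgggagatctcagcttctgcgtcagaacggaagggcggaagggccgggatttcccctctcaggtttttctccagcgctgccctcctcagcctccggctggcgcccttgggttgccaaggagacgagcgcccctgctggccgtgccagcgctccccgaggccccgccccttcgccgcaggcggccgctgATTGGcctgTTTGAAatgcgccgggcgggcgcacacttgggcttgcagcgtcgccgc
Kif18a: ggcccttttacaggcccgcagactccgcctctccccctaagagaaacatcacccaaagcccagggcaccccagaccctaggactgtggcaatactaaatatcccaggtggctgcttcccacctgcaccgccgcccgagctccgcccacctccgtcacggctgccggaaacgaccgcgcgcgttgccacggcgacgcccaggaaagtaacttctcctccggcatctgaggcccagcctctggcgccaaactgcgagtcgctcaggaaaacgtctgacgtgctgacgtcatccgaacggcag
Kif17: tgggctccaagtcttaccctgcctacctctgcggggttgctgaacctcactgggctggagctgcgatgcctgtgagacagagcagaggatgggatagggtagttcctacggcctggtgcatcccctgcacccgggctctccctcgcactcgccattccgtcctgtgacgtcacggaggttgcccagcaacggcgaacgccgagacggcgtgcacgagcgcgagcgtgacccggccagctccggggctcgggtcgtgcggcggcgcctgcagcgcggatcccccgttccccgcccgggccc

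The homology region motif stood in the windows of 32 of 50 mitotic genes (64.0%), in 2 of 17 transport and other kinesins (11.8%) and in 30.6% of 27025 genes in the RefSeq table. Among the mitotic kinesins with a window 9 of 10 held it, Kif18a being the exception, and Kif20a had no window. CCAAT stood in 64.0% of the mitotic genes, 29.4% of the transport and other kinesins and 41.1% of all genes, and both motifs together in 25 of 50, in 1 of 17 and in 12.2% of all genes. The homology region was in 25 of 38 that fell (65.8%) and in 7 of 12 that rose or gave no call (58.3%). CCAAT had the same counts, and both motifs together stood in 52.6% of those that fell and 41.7% of the others, differences that were not tested. In the windows printed above, which were chosen for their differing calls, Ttk, Cdc20 and Kif23 each hold both motifs. Their log2 fold changes were -1.11, -0.08 and 0.25. A match is a description of these letters, and binding was not measured.

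Transport kinesins went both ways. Among these 15 motors 9 fell, 5 rose and 1 had no call, and the median log2 fold change was -0.63 in a range of -8.44 to 4.94. The ends of that range are Kif1a and Kif17, which with Kif5a entered the test through the line in which they were high. The other 12 had a median of -0.54 in a range of -2.61 to 0.80, and of these Kif3c and Kif13a fell by log2 1 or more. Kif1a, the motor of synaptic vesicle precursors, stood at 0.139, 0.131 and 0.0653 RPKM in ATRX KO and at 36.4, 37.1 and 36.7 RPKM in ATRX WT. That is 70 reads in ATRX KO against 36018 in ATRX WT, with a mean RPKM 329-fold lower in ATRX KO (log2 fold change -8.44, SE 0.253, adjusted p = 3e-09). Kif5a, the neuronal heavy chain of conventional kinesin, stood at 0.155, 0.0742 and 0.105 RPKM in ATRX KO and at 2.16, 1.89 and 2.20 RPKM in ATRX WT (log2 fold change -4.29, SE 0.245, adjusted p = 2.3e-07), from 57 reads in ATRX KO against 1711 in ATRX WT. Most neuronal markers were lower too, with 10 of 12 tested lower in ATRX KO and 2 (Nefl and Nefm) higher. Of those lower, Dcx, Stmn2, Syp, Snap25, Elavl3, Elavl4 and Gpm6a had ATRX KO means under log2 RPKM 0. They entered the test through ATRX WT, and their calls add nothing to that count as evidence. The part of the markers in the falls of Kif1a and Kif5a was not tested.

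Within kinesin-1 the other heavy chains fell less, and the share of Kif5b stayed close. Kif5b, the heavy chain found in most tissues, stood at 26.4, 28.8 and 28.4 RPKM in ATRX KO and at 48.1, 48.3 and 46.8 RPKM in ATRX WT, and Kif5c at 8.27 ± 0.0620 RPKM in ATRX KO and 12.8 ± 0.283 RPKM in ATRX WT. Chosen after their values were seen, they fell by 0.78 and 0.62. The 3 chains summed to 36.3 ± 1.20 RPKM in ATRX KO and 62.6 ± 0.757 RPKM in ATRX WT, of which Kif5b made up 76.9% in ATRX KO and 76.3% in ATRX WT. Kif5c made up 22.8% in ATRX KO and 20.4% in ATRX WT, and Kif5a 0.31% in ATRX KO and 3.33% in ATRX WT. The light chain Klc1, which binds cargo and was also named after its value was seen, fell by 0.28.

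Kinesin-2, the family that builds cilia and carries dendritic cargo, had a different make-up in the 2 lines. Kif17, which works as a pair of identical chains, stood at 32.1, 27.8 and 28.3 RPKM in ATRX KO and at 0.839, 1.01 and 1.03 RPKM in ATRX WT. Its mean RPKM was 30.7-fold higher in ATRX KO, from 8944 reads in ATRX KO against 436 in ATRX WT (log2 fold change 4.94, SE 0.092, adjusted p = 1.9e-10). Kif17 lies on chromosome 4, where 53 of 57 genes within 5 Mb were higher in ATRX KO, with a median of 0.97. Kif3c, a neuronal chain that pairs with Kif3a, went the other way, with 8.19, 8.13 and 7.55 RPKM in ATRX KO and 48.5, 48.2 and 48.5 RPKM in ATRX WT (log2 fold change -2.61, SE 0.038, adjusted p = 5.3e-11). Its exons share 2617 bases with 1110002L01Rik on the opposite strand, so reads of the pair may be mixed.

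The common partner Kif3a fell by 0.67 and Kif3b, its usual mate in the cilium motor, by 0.45, and the third subunit Kifap3 by 0.79, all chosen after their values were seen. Kif3a stood at 14.9 ± 0.895 RPKM in ATRX KO and 23.8 ± 0.359 RPKM in ATRX WT, and Kif3b at 8.61 ± 0.255 RPKM in ATRX KO and 11.8 ± 0.141 RPKM in ATRX WT. Kif17 made up 48.2% ± 2.46 of the summed RPKM of kinesin-2 in ATRX KO and 1.13% ± 0.126 in ATRX WT, and Kif3c 13.1% ± 0.439 in ATRX KO and 57.0% ± 0.165 in ATRX WT (SD, n = 3 each). Summed over the 4 chains, kinesin-2 stood at 60.9 ± 1.90 RPKM in ATRX KO and 84.9 ± 0.294 RPKM in ATRX WT.

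**Figure D4:**
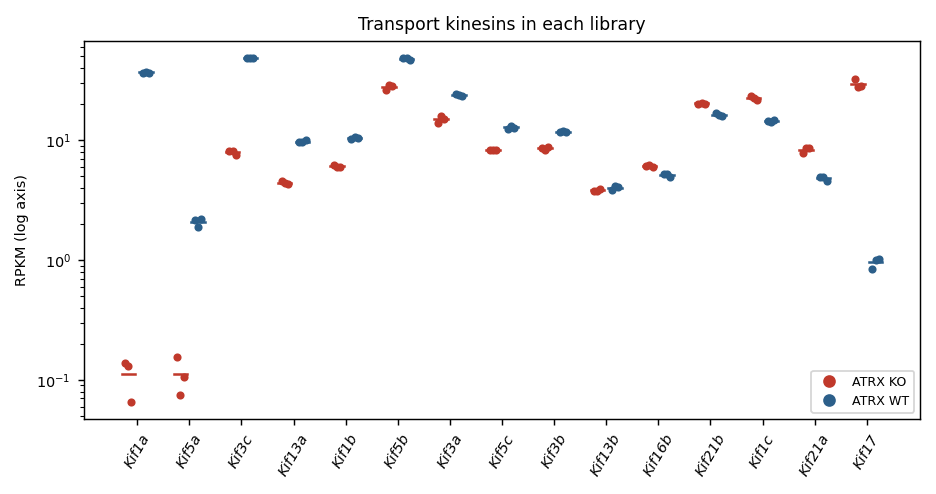
RPKM of the 15 transport kinesins in each library on a log axis, with ATRX KO in red to the left of ATRX WT in blue and a bar at each mean, ordered from the largest fall to the largest rise. Kif1a lies at 0.0653 to 0.139 RPKM in ATRX KO and 36.4 to 37.1 RPKM in ATRX WT, and Kif17 at 27.8 to 32.1 RPKM in ATRX KO and 0.839 to 1.03 RPKM in ATRX WT.

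Kinesin-3 motors carry vesicles and endosomes, and here Kif1c took the place of Kif1a as the most abundant one. Kif1c, known from retrograde and integrin traffic, stood at 23.2, 22.5 and 21.7 RPKM in ATRX KO and at 14.5, 14.2 and 14.6 RPKM in ATRX WT (log2 fold change 0.64, SE 0.035, adjusted p = 1.8e-07). Its share of the family's summed RPKM was 52.3% in ATRX KO and 17.9% in ATRX WT, compared with 0.259% in ATRX KO and 45.7% in ATRX WT for Kif1a. Kif13a, a motor of recycling endosomes, fell by 1.14 (SE 0.046), with 4.42 ± 0.112 RPKM in ATRX KO and 9.72 ± 0.188 RPKM in ATRX WT. Kif1b, which moves mitochondria and synaptic vesicle precursors, fell by 0.78 (SE 0.043), with 6.08 ± 0.127 RPKM in ATRX KO and 10.4 ± 0.243 RPKM in ATRX WT. Around Kif1b on chromosome 4, 35 of 38 genes within 5 Mb were higher in ATRX KO, with a median of 1.27. Kif16b, a motor of early endosomes, rose by 0.25 (SE 0.048, adjusted p = 0.001), a call lost with scaling by the reads in the table. Kif13b averaged 3.81 ± 0.0841 RPKM in ATRX KO and 4.01 ± 0.151 RPKM in ATRX WT with overlapping groups and no call (log2 difference -0.07, adjusted p = 0.24). The family summed to 43.0 ± 0.976 RPKM in ATRX KO and 80.5 ± 0.651 RPKM in ATRX WT, the largest drop of the 4 transport families in RPKM.

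The 2 transport motors of kinesin-4, Kif21a and Kif21b, which slow microtubule growth, both rose. Other kinesin-4 members, counted in other groups here, did not. Kif4 fell by 0.70 and Kif7 by 0.14, the call of Kif7 being lost in some alternatives. Kif21a rose by 0.80 (SE 0.058, adjusted p = 1.2e-06), with 7.84, 8.62 and 8.58 RPKM in ATRX KO and 4.92, 4.88 and 4.57 RPKM in ATRX WT. Kif21b rose by 0.32 (SE 0.034, adjusted p = 1.9e-05), with 20.2 ± 0.280 RPKM in ATRX KO and 16.3 ± 0.449 RPKM in ATRX WT. Together Kif21a and Kif21b summed to 28.6 ± 0.663 RPKM in ATRX KO and 21 ± 0.606 RPKM in ATRX WT, the one sum of transport motors that was higher in ATRX KO.

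**Figure D5:**
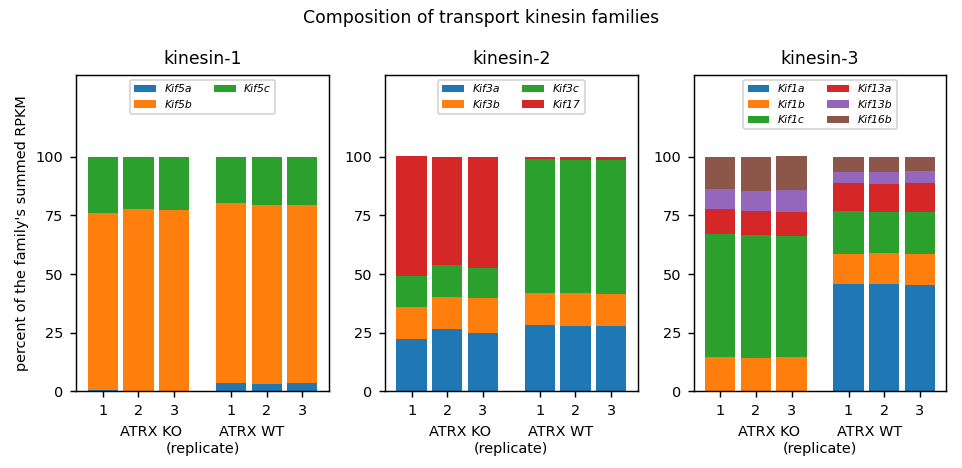
Share of each motor in the summed RPKM of its transport family, in percent, for each library, with the 3 ATRX KO bars left of the 3 ATRX WT bars in every panel. In kinesin-1 Kif5b stands at 76.9% in ATRX KO and 76.3% in ATRX WT, and Kif5a at 0.31% in ATRX KO and 3.33% in ATRX WT. Kif17 makes up 48.2% of kinesin-2 in ATRX KO and 1.13% in ATRX WT. Kif1a makes up 0.259% of kinesin-3 in ATRX KO and 45.7% in ATRX WT.

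Ordered by mean RPKM over the 33 kinesins, 3 motors changed place most. Kif17 ranked 4 in ATRX KO and 30 in ATRX WT, Kif3c 20 in ATRX KO and 2 in ATRX WT, and Kif1a 32 in ATRX KO and 5 in ATRX WT. Kif22 ranked 1 in both lines, although in ATRX KO its 41.2 ± 0.832 RPKM did not differ from the 40.7 ± 1.11 RPKM of Kif23 beyond their spread.

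Of the 8 remaining Kif genes 4 fell, 2 rose and 2 were too low for the test. Among the 6 tested, 66.7% fell and 33.3% rose, beside 45.9% and 43.6% of all tested genes. Kif26a, a motor-like protein without motor activity that acts in the enteric nervous system, stood at 7.95, 6.61 and 7.10 RPKM in ATRX KO and at 0.456, 0.408 and 0.483 RPKM in ATRX WT. The groups were far apart (log2 fold change 4.01, SE 0.101, adjusted p = 1e-09), from 3877 reads in ATRX KO against 358 in ATRX WT. Its relative Kif26b, known from kidney development, averaged 0.889 RPKM in ATRX KO and 0.161 RPKM in ATRX WT, from 506 reads in ATRX KO against 133 in ATRX WT, and was not tested. Kif2a, the relative of Kif2c that trims microtubules in neurons and at spindle poles, rose by 0.41 (SE 0.038, adjusted p = 8.2e-06), with 24.9 ± 0.611 RPKM in ATRX KO and 18.8 ± 0.734 RPKM in ATRX WT, though its exons share 1229 bases with Dimt1 on the opposite strand.

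Of the 4 among these with roles at cilia or centrioles, 3 fell and Kif9 was too low for the test. Kif19a, which limits the length of motile cilia, fell by 1.84 (SE 0.112), with 0.555 ± 0.0605 RPKM in ATRX KO and 1.986 ± 0.1304 RPKM in ATRX WT. Kif24, which acts at the mother centriole to hold back cilia, fell by 0.75 (SE 0.061), with 2.17 ± 0.0523 RPKM in ATRX KO and 3.65 ± 0.0679 RPKM in ATRX WT. Kif7, the kinesin of Hedgehog signalling at the cilium tip, fell by 0.14 (SE 0.048, adjusted p = 0.024), a call that did not hold without ATRX WT replicate 2 or 3, or after quantile normalization, where the log2 difference was 0.007. Kif9, a kinesin of motile cilia, was not tested, with 0.400 ± 0.0450 RPKM in ATRX KO and 0.319 ± 0.0218 RPKM in ATRX WT, from 102 reads in ATRX KO against 124 in ATRX WT in libraries of unequal depth. Kif1bp, which is no kinesin but binds and blocks several, fell by 0.10 (SE 0.036, adjusted p = 0.03), a call that did not hold without ATRX KO replicate 2 or 3 and without ATRX WT replicate 1 or 2.

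Other genes of the same processes, from lists beside the 80, were also lower more often than higher. Of 46 other spindle and kinetochore genes 11 rose (23.9%), 31 fell (67.4%) and 4 had no call, and the median log2 fold change was -0.48. Among all tested genes 43.6% rose and 45.9% fell. Zwint, which docks on Casc5 at the outer kinetochore, rose by 0.84, with 105.9 ± 2.45 RPKM in ATRX KO and 59.0 ± 1.03 RPKM in ATRX WT, while Casc5 itself fell. Of the 8 augmin genes, whose complex branches spindle microtubules, 6 fell, 1 rose and 1 had no call. Haus4 fell by 1.44 and Haus6 rose by 0.94. Fam83d, which recruits a kinase to the spindle, fell by 1.401. Of 41 other genes of microtubule transport 11 rose (26.8%) and 30 fell (73.2%), with a median of -0.42. Klc3, Kifc2, Bicd1 and Hook1, named after their values were seen, and Mapk8ip2 and Ppfia3 had ATRX KO means under log2 RPKM 0. These genes entered the test through ATRX WT, and their calls add nothing to the count as evidence. The scaffolds Mapk8ip2 and Ppfia3, which link kinesins to neuronal cargo, fell by 6.30 and 4.40, with 18 and 65 reads in ATRX KO and 2465 and 2241 in ATRX WT. The dynein adaptor Hook2 rose by 1.06 and Fez2, a relative of the kinesin adaptor Fez1, by 0.75. Of 13 proliferation genes 11 fell (84.6%) and 2 rose (15.4%), with a median of -0.40. The replication helicase subunit Mcm4 fell by 1.16 and cyclin A2, Ccna2, by 0.75, while the helicase subunits Mcm6 and Mcm2 rose by 0.38 and 0.22, the rise of Mcm2 being lost under 2 other scalings. The proliferation list moved with the mitotic genes, and its part in their falls was not tested.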

How the data were processed

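The authors deposited log2 RPKM values (log2 of reads per kilobase, relative to library size) for 13069 genes in 6 libraries, made per the labels' protocols from 4 ug of RNA with a stranded mRNA kit and 42-nt paired-end reads. Alignment with STAR 2.5.3a, counting with HTSeq 0.11.2, edgeR 3.20.9, FastQC and Trim Galore are listed in the submitters' processing notes, which give mm10 and mm9 as builds but no role. The filter behind the table and the strand setting of counting are not given in the sources used here.

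Whole reads were recovered from the steps of the deposited log2 values for 100% of genes (tolerance 0.0001 reads), with a prior averaging 2 reads. RPKM values are the deposited log2 values turned back to the linear scale, so they keep that prior. A gene at 0 reads, such as Dcx in ATRX KO, therefore holds an RPKM above 0. The recovered reads were used to describe read numbers and depth, and to rescale libraries by the reads in the table. A count test on the recovered reads was not run. Genes that reached log2 RPKM 0 in 3 of 6 libraries were tested on the deposited log2 RPKM with limma 3.58.1 (R 4.3.3, mean-variance trend, 4 residual degrees of freedom), two-sided, with Benjamini-Hochberg adjustment over 12201 genes and a threshold of 0.05. The fit was also run on simulated data in which few genes changed. Most genes changed in the real data, so that run does not bear on the calls given here. Each fold change is the log2 mean of ATRX KO minus that of ATRX WT, with the authors' prior count, which understates changes of low genes.

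The members and lists were chosen with earlier results of these data known. Named were all members of role groups of 8 or fewer, in larger groups up to 5 rises, 5 falls and 3 without a call, and from each list beside them up to 2 rises and 2 falls. Atrx, Trp53 and Nras were named whatever their result. Other genes are marked as chosen after their values were seen. All 80 symbols matched RefSeq genes (GRCm38.p6), which gave chromosomes, neighbours and promoter windows. Exon overlaps are from GENCODE M21, where 17 of the 80 overlap a gene of the table. Alternatives covered filters, a pseudocount of 1, 2 scalings, the trend, the replicate block and each library left out.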

Additional observations from a re-analysis of the deposited data

How the results depend on the processing

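Over the alternatives that left out 1 library, the 14 rises among the 80 genes stayed 14 and the falls numbered 53 to 58. Counts of rises and falls by role kept within 1.5 times under the filters, log2(RPKM + 1), the fit without a trend and the replicate block. With the replicate block 55 members fell and 14 rose, Aurkb losing its call, and no other call changed. The numbers do not pair the libraries (correlations of deviations -0.0455, 0.0513 and -0.0383 for same numbers). A log2 difference of at least 1 left 2 rises and 17 falls among all members, 0 and 2 among mitotic kinesins, 1 and 4 among transport kinesins, 0 and 5 among centromere and kinetochore genes, and 0 and 5 among checkpoint, spindle and cytokinesis genes, which shows how many calls are small. Among all tested genes 17.2% rose and 19.6% fell by that much. Rises of mitotic kinesins became 1, and those of centromere and kinetochore genes 1, with scaling by the reads in the table, and the count of centromere and kinetochore genes became 4 after quantile normalization.

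Directions turned in at least 1 alternative for 7 of the 78 members tested and for 10 of 151 genes of the lists beside them, Cenpa included. The members' log2 differences as reported lay between -0.14 and 0.19. After quantile normalization the log2 difference was 0.10 for Kif14, 0.19 for Kif13b, 0.007 for Kif7, 0.29 for Cenpo, -0.012 for Bub3, -0.011 for Sgol1 and -0.20 for Cenpa. With scaling by the reads in the table it was -0.15 for Cenpk, -0.005 for Bub3, -0.16 for Sgol1 and -0.19 for Cenpa. Over the libraries left out in turn it ran from -0.131 to 0.024 for Cenpo and from -0.013 to 0.036 for Cenpa, and turned without ATRX KO replicate 1. The cause was not tested. Of the 8 members without a call, Kif14, Kif13b, Cenpo, Incenp, Cdc20, Sgol1 and Aurka passed as lower with scaling by the reads in the table. After quantile normalization Incenp, Cdc20 and Aurka passed as lower and Kif13b, Cenpk and Cenpo as higher. Depth limits Kif1a and Kif5a, whose levels in ATRX KO rest on 70 and 57 reads.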

Other observations

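Regulators of mitotic genes moved in both directions. Of 14 tested, 4 rose, 8 fell and 2 had no call, and the median log2 fold change was -0.23. Foxm1, an activator of genes of G2 and mitosis, stood at 19.1, 18.6 and 18.0 RPKM in ATRX KO and at 38.2, 38.1 and 38.99 RPKM in ATRX WT (log2 fold change -1.05, SE 0.032, limma adjusted p = 3.5e-09). Rbbp4, a subunit of the MuvB core that also serves other chromatin complexes, stood at 67.8, 66.8 and 68.3 RPKM in ATRX KO and at 122.4, 123.4 and 120.3 RPKM in ATRX WT (-0.85, SE 0.025). E2f4, the E2F of the repressive DREAM complex, was higher, at 74.1, 70.0 and 68.0 RPKM in ATRX KO and 32.2, 31.7 and 34.0 RPKM in ATRX WT (1.11, SE 0.041, adjusted p = 1.1e-08). Nfya, the NF-Y subunit that reads the CCAAT box, rose by 0.27. Mybl2, chosen after its value was seen, averaged 9.65 ± 0.778 RPKM in ATRX KO and 10.7 ± 0.424 RPKM in ATRX WT and did not pass (log2 difference -0.15, adjusted p = 0.052). It passed as lower in 6 alternatives, the minimum mean log2 RPKM of 1, log2(RPKM + 1), both other scalings, the replicate block and without ATRX KO replicate 1, and adjusted p ranged over the alternatives from 0.00068 to 0.16. Whether these levels bear on the members was not tested.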
